A study of Mus musculus with 48 samples.

Results

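NeuroD1-positive cells from the colon of mice 6 weeks after vertical sleeve gastrectomy (VSG) were compared with the same cells from sham-operated mice that were fed freely (sham ad libitum). The comparison holds every mouse library with the tissue label colon_rectum and the condition label VSG (6 libraries) or S_al (5 libraries), which is 11 of the 48 libraries of the series. The study asked whether enteroendocrine cells themselves are altered by the operation. Each of the 11 libraries came from a separate mouse. The remaining libraries came from the duodenum and ileum and from sham mice held at the weight of the VSG mice (sham weight-matched, 5 colon libraries). The weight-matched mice were not fed freely but were given scheduled food each day to hold that weight. The remaining libraries are used below only to estimate the spread between libraries and for comparisons set beside this one.

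Both groups were lean male mice of the strain Neurod1-cre-eYFP on a C57BL6 background, operated on at about 20 weeks of age. In the VSG group most of the stomach was cut away and the rest closed, whereas in the sham ad libitum group a running suture was laid where the VSG stomachs were cut, without tightening it. The methods give weekly cyanocobalamin injections under the skin for VSG mice and name none for sham mice, so that in this contrast the injections and the operation cannot be told apart. Both groups had a liquid diet near the time of the operation and standard chow at other times. Before tissue collection both groups were fasted overnight, and glucose at 3 g/kg was given by gavage about 15 min before the gut was taken. The sort took cells in which the reporter had been switched on by Cre under the Neurod1 gene, a mark of the endocrine lineage that does not separate one hormone cell from another, and colon and rectum were pooled in each mouse.

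Enteroendocrine cells are scattered, hormone-releasing cells of the gut lining. In the colon, L cells make the proglucagon gene product GLP-1 together with peptide YY and insulin-like peptide 5, enterochromaffin cells make serotonin, and D cells make somatostatin. Their identity is set by a cascade of transcription factors that begins with Neurog3 and continues with Neurod1, and their peptides are cut by prohormone convertases, packed with granins and released by calcium-triggered vesicle fusion.

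Total counts ranged from 4648651 to 8777721 per library, with between 17781 and 22231 genes at 1 count or more. Levels are given in CPM, the counts scaled to library size after TMM normalization, and 3 counts, taken as the floor, were worth 0.312 to 0.686 CPM. The endocrine label held in all 11 libraries: the chromogranins Chga and Chgb, granule proteins of endocrine cells, lay between 14913 and 58892 CPM. Colon identity genes were counted in all 11 libraries, with sums of 312 to 518 CPM in sham ad libitum and 269 to 471 CPM in VSG libraries. Hoxd13, a gene of the hindgut, was at 0 in the library of VSG mouse 30 and present in the other 10, at up to 20.2 CPM. Summed small intestine identity genes were at 17.01 to 117.8 CPM in sham ad libitum libraries, highest in mouse 32. In VSG libraries that sum was at 31.2 to 84.8 CPM, highest in mouse 30, which also had the lowest colon identity sum. The description codes of the ileum and colon of mouse 12 contradict their tissue labels, which were followed here. Markers of neighbouring epithelial cells were present throughout, with counts for all 12 colonocyte and all 8 goblet markers in every library. The sham ad libitum library of mouse 24 stood apart in MHC class II genes, and that of mouse 32 in the crypt genes Defa24 and Olfm4. For the class II and interferon genes, values without one or both of them are given beside the results. Mice 24 and 32 also had the lowest total counts of the sham ad libitum group, at 5369770 and 4648651. In the VSG group total counts were lowest in mice 25, 28 and 30, at 5318599, 4891889 and 5365878.

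Across all genes, no gene separated the colon of VSG mice from that of sham ad libitum mice at the adjusted threshold. None of the 15126 genes tested (0%) had an adjusted p under 0.05 by edgeR's quasi-likelihood test with Benjamini-Hochberg adjustment, and the lowest adjusted p was 0.696. DESeq2 also called 0 genes. At an unadjusted p under 0.05 there were 950 genes (6.28%), of which 454 (3%) were higher and 496 (3.28%) lower after VSG. Every log2 fold change below is VSG minus sham ad libitum, every adjusted p given with one is from edgeR's test over all genes, and "higher" or "lower" describes values that did not pass the adjusted test. For the median gene the 95% confidence interval of the log2 fold change, unadjusted for the number of genes, reached 0.526 to either side. Smaller differences were mostly not detectable with these libraries, and larger ones could also miss the adjusted threshold.

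The groups accounted for 10.6% of the summed squares of the 100 most variable genes over the 11 libraries (exact permutation test over all arrangements of the libraries, one-sided, p = 0.370). The first principal component of these genes held 27.7% of the variance and the second 18.2%. Along the first, sham ad libitum mouse 32 and VSG mice 28 and 30 lay together at one end, and along the second, sham ad libitum mouse 24 stood alone at 17.5. In 62 of the 15126 genes (0.41%) no VSG library overlapped the range of the sham ad libitum libraries, with 33 higher and 29 lower after VSG.

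**Figure D1:**
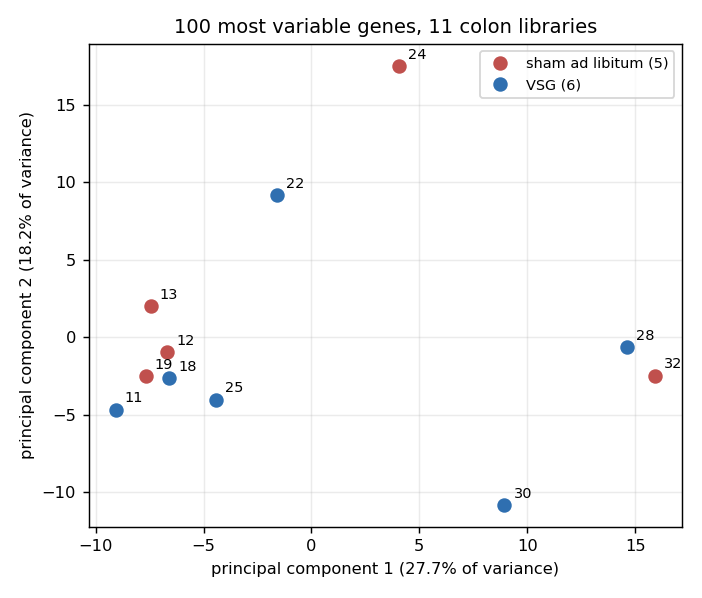
Principal components 1 and 2 (27.7% and 18.2% of the variance, in units of log2 CPM) of the 100 most variable genes, with 1 point per colon library, numbered by mouse, for 5 sham ad libitum and 6 VSG mice. The groups interleave, and sham ad libitum mouse 24 lies highest on component 2 at 17.5.

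No hormone gene passed the adjusted test. Of 19 gut peptide genes, none had an unadjusted p under 0.05 in either direction, and their median log2 fold change was -0.26, against 0.01 for all genes tested. Sham ad libitum values are given in the order of mice 12, 13, 19, 24 and 32, and VSG values as the range and median of 6 libraries. Gcg, which encodes proglucagon, the precursor of GLP-1, was at 679, 1038, 880.2, 1209.7 and 448 CPM in the sham ad libitum libraries and at 307 to 928 (median 634) CPM after VSG. The ranges overlapped for most of their length, with the lowest library in the VSG group and the highest in the sham ad libitum group. The difference (log2 fold change -0.46, SE 0.44, edgeR adjusted p = 0.86) had a 95% confidence interval of -1.35 to 0.44. Pyy, which encodes the appetite-reducing peptide YY, was at 569, 605, 728, 729 and 383 CPM in sham ad libitum libraries and 260.4 to 991 (median 489) CPM after VSG (log2 fold change -0.20, SE 0.40, edgeR adjusted p = 0.938). For Pyy both the lowest and the highest library belonged to the VSG group. Insl5, the gene of the colonic L cell peptide insulin-like peptide 5, was at 60.4, 171, 163, 250.5 and 59.8 CPM against 52.01 to 345 (median 120.2) CPM (log2 fold change -0.00, SE 0.45, edgeR adjusted p = 1). Its levels spread several-fold within each group, and VSG mouse 25 was the highest of all 11 libraries.

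The remaining peptides overlapped in the same manner. Neurotensin (Nts), a peptide of the distal gut, was at 589, 340.02, 384, 504.4 and 334 CPM in sham ad libitum libraries and 213 to 633 (median 267) CPM after VSG (log2 fold change -0.31, SE 0.36, edgeR adjusted p = 0.881). Secretin (Sct), which stimulates bicarbonate secretion, was at 741, 335, 372, 443 and 322 CPM against 209 to 438 (median 369) CPM (log2 fold change -0.36, SE 0.31, edgeR adjusted p = 0.841). The library of sham ad libitum mouse 12 lay above the others for Sct, and the other 10 libraries overlapped. Without the ileum and colon libraries of mouse 12 the Sct value was -0.09. Somatostatin (Sst), the paracrine brake on hormone release, was at 47.98, 58.9, 99.5, 184 and 31.3 CPM against 23.7 to 96.4 (median 68.2) CPM (log2 fold change -0.37, SE 0.51, edgeR adjusted p = 0.905), with the highest value in sham ad libitum mouse 24. Without that library the Sst value was 0.13.

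Tac1, the tachykinin gene of enterochromaffin cells, had a log2 fold change of -0.26 (SE 0.36), and Iapp, the amylin gene, one of -0.15 (SE 0.43). Values for the pancreatic polypeptide gene Ppy were -0.25 (SE 0.52), for prodynorphin (Pdyn) -0.49 (SE 0.56) and for endothelin 3 (Edn3) 0.32 (SE 0.55). Cck and Gip, hormones of the upper gut, were present at up to 38.97 and 99.05 CPM, with values of -0.14 (SE 0.37) and -0.21 (SE 0.59) that changed sign without sham ad libitum mouse 24. Ghrl, the ghrelin gene, stayed under 4 CPM (-0.34, SE 0.64), and the low Ucn3 and Cartpt had values of -0.87 (SE 0.95) and -0.58 (SE 0.95). For Nmu there were 7 counts in sham ad libitum and 3 in VSG libraries, a ratio of 2.78 with a counting interval from 0.634 to 16.6. Gast, the gastrin gene, had 0 counts in all 11 libraries, and Penk reached the floor in neither group.

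The enteroendocrine genes were lower on average in the VSG libraries, so each hormone was also taken relative to the mean of Neurod1, Chga, Chgb, Scg2, Pcsk1 and Cpe within a library. On that scale the mean log2 difference between VSG and sham ad libitum was -0.14 for Gcg, 0.03 for Pyy, 0.28 for Insl5, -0.07 for Nts and 0.08 for Sst. Each of these was smaller than the SD of the libraries of either group. In sorted bulk samples, fewer cells of a type and less RNA per cell cannot be told apart.

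**Figure D2:**
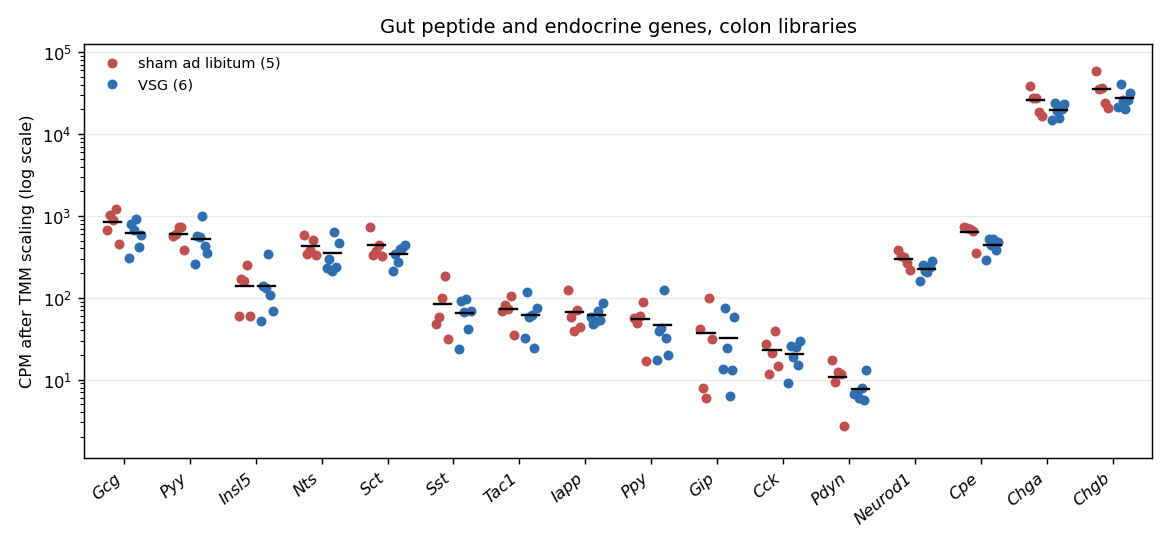
Level of gut peptide and endocrine genes in the colon (CPM after TMM scaling, log axis), with 1 point per library (5 sham ad libitum, 6 VSG) and a black line at the mean of each group. The groups overlap in every gene shown, and Cpe ranges from 356 to 722 CPM in sham ad libitum and 288 to 524 CPM in VSG libraries.

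Of 8 serotonin genes 0 had an unadjusted p under 0.05, and their median was -0.21. Tph1, the enzyme that commits tryptophan to serotonin in enterochromaffin cells, was at 2137 to 4968 (median 3818) CPM in sham ad libitum and 1559.5 to 3167 (median 2628) CPM in VSG libraries (log2 fold change -0.53, SE 0.28, edgeR adjusted p = 0.78). Ddc, the next enzyme of the pathway, was at 479.9, 617, 426, 459.7 and 313 CPM against 217 to 452 (median 371) CPM (log2 fold change -0.34, SE 0.18, edgeR adjusted p = 0.777). In both genes the ranges overlapped. The vesicular monoamine transporter Slc18a1 had a value of -0.35 (SE 0.22), and the reuptake transporter Slc6a4 one of 0.10 (SE 0.29). Relative to the 6 endocrine genes above, the mean difference of Tph1 was -0.19, more than the SD of the sham ad libitum libraries (0.131) and less than that of the VSG libraries (0.215).

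Genes that make up the secretory apparatus shared a direction. Over all 15126 genes tested, 7408 values were negative and 7718 positive. Of 11 granin and prohormone processing genes 10 were lower after VSG, with a median of -0.35, and 1 of them had an unadjusted p under 0.05, beside 3.28% of all genes in that direction. That gene was Cpe, carboxypeptidase E, which trims the ends of cut prohormones, at 722, 719, 687, 663 and 356 CPM in sham ad libitum libraries and 288 to 524 (median 461) CPM after VSG (log2 fold change -0.52, SE 0.23, edgeR adjusted p = 0.777). The sham ad libitum library of mouse 32 lay inside the VSG range, and the other 4 lay above it. Chga was at 39189, 27503, 27639.6, 18714 and 16616 CPM against 14913 to 24272 (median 19811) CPM (log2 fold change -0.40, SE 0.27, edgeR adjusted p = 0.806), and Chgb, its partner in granule formation, had a value of -0.35 (SE 0.31). Both were highest in sham ad libitum mouse 12, whose ileum and colon description codes contradict their tissue labels. Without its ileum and colon libraries the log2 fold change was -0.20 for Chga and -0.09 for Chgb. The convertase gene Pcsk1, whose product cuts proglucagon to GLP-1, had a value of -0.30 (SE 0.23), and Scg2, secretogranin II, one of -0.11 (SE 0.35).

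All 21 enteroendocrine transcription factor genes had a negative value, as had 7408 of all 15126 genes tested. Their median was -0.36, and 4 of them had an unadjusted p under 0.05, beside 3.28% of all genes lower. St18, a zinc finger factor, was at 65.9, 99.8, 73.8, 59.9 and 38.8 CPM in sham ad libitum libraries against 26.3 to 63.99 (median 43.6) CPM (log2 fold change -0.60, SE 0.23, edgeR adjusted p = 0.758). Insm1, a repressor needed for endocrine differentiation, was at 306, 373, 359, 269 and 145 CPM against 95.7 to 237 (median 202) CPM (log2 fold change -0.59, SE 0.24, edgeR adjusted p = 0.777). In both genes sham ad libitum mouse 32 was the lowest of its group and lay inside the VSG range. Nkx2-2, a homeobox factor that favours serotonin cells, had a value of -0.49 (SE 0.24) with an edgeR adjusted p of 0.777, and Fev, an ETS factor of serotonin cells, -0.41 (SE 0.20) with an edgeR adjusted p of 0.777. Neurod1, the gene that drives the reporter, was at 380.1, 325, 312, 266 and 217 CPM against 158 to 285 (median 226) CPM (log2 fold change -0.41, SE 0.25, edgeR adjusted p = 0.788), and VSG mouse 11 was its lowest library. Neurod1 and Nkx2-2 share exon sequence with other annotated genes (Cerkl on the same strand for Neurod1, Nkx2-2os on the opposite strand for Nkx2-2), so that their counts are uncertain.

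Vesicle exocytosis genes followed, with 5 of 20 at an unadjusted p under 0.05, all lower, beside 3.28% of all genes, and a median of -0.37. Vamp2, the vesicle SNARE protein, was at 88.04, 93.4, 84.3, 78.9 and 55.98 CPM in sham ad libitum libraries against 41.3 to 65.9 (median 60.5) CPM (log2 fold change -0.45, SE 0.18, edgeR adjusted p = 0.777). Only the library of sham ad libitum mouse 32 lay inside the VSG range of Vamp2. Rab3c, a vesicle GTPase, had a value of -0.61 (SE 0.28), the fusion clamp Cplx2 -0.45 (SE 0.22) and the calcium sensor Syt4 -1.56 (SE 0.73), the last at under 20 CPM in every library.

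These counts depended on single libraries. Without sham ad libitum mouse 32 the unadjusted counts were 3 granin, 8 transcription factor and 9 exocytosis genes, all lower after VSG, beside 4.93% of all genes in that fit. Without sham ad libitum mouse 13 they were 0, 0 and 1, beside 2.11% of all genes. Without VSG mouse 11, whose endocrine levels were the lowest of its group, they were 0, 1 and 1, beside 2.34% of all genes. The medians stayed negative without each library in turn, from -0.49 to -0.25 for granins, -0.46 to -0.29 for transcription factors and -0.51 to -0.25 for exocytosis genes. Without the ileum and colon libraries of mouse 12, whose labels and codes conflict, the median was -0.25 for granins and -0.25 for exocytosis genes.

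Goblet and colonocyte markers lay on the other side in the same libraries. All 8 goblet markers had a positive value (median 0.44, 0 at an unadjusted p under 0.05), and so did 11 of 12 colonocyte markers (median 0.37, 1 at an unadjusted p under 0.05, beside 3% of all genes in that direction). Of all 15126 genes tested, 7718 had a positive value. Summed goblet markers ranged from 4881 to 9978 CPM in sham ad libitum and 4099 to 14100 CPM in VSG libraries, and summed colonocyte markers from 2761 to 3748 and 2800 to 4122 CPM. Aqp8, a water channel of surface colonocytes, was at 29.6, 25.1, 18.98, 65.3 and 44.6 CPM in sham ad libitum libraries against 15.5 to 90.5 (median 82.5) CPM after VSG (log2 fold change 0.90, SE 0.41, edgeR adjusted p = 0.777). In VSG mice 11, 22, 25 and 30 Aqp8 lay above the sham ad libitum range, and in VSG mouse 18 below it. Muc2, the main gel-forming mucin, had a value of 0.66 (SE 0.49) and Tff3, a goblet trefoil peptide, 0.67 (SE 0.40), while Krt20, a keratin of mature surface cells, had the opposite sign (-0.30, SE 0.23). The part that a different share of goblet and absorptive cells in the sort may have in the endocrine values was not tested.

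Other markers were sparser, and their counts stand beside 3% of all genes higher and 3.28% lower at an unadjusted p under 0.05. Tuft markers had a median of 0.30 (0 of 5 at an unadjusted p under 0.05), stem markers 0.20 (0 of 7) and proliferation genes 0.25 (1 of 10, Ccnb2, 0.87, SE 0.42). The 6 deep crypt and Paneth markers had a median of -0.35, with 1 lower at an unadjusted p under 0.05: Defa24, a defensin gene, at 0.731, 3.3, 0.703, 1.34 and 21.1 CPM in sham ad libitum libraries against 0.21 to 2.29 (median 0.58) CPM (-2.57, SE 0.99). Its high value came from sham ad libitum mouse 32, and without that library the log2 fold change of Defa24 was -0.93. Immune markers had a median of -0.91 (1 of 7 lower, Lyz2, with 7 counts in sham ad libitum and 1 in VSG libraries), and their sum was at most 16.8 CPM, in sham ad libitum mouse 32. Stromal markers had a median of -0.69 (0 of 2), neuron and glia markers -0.40 (0 of 4), colon identity genes -0.06 (0 of 5) and small intestine identity genes -0.30 (0 of 7). Among these, Ret, a receptor of enteric neurons and also of some enteroendocrine cells, carried most of the neuronal sum, with a value of -0.48 (SE 0.27).

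**Figure D3:**
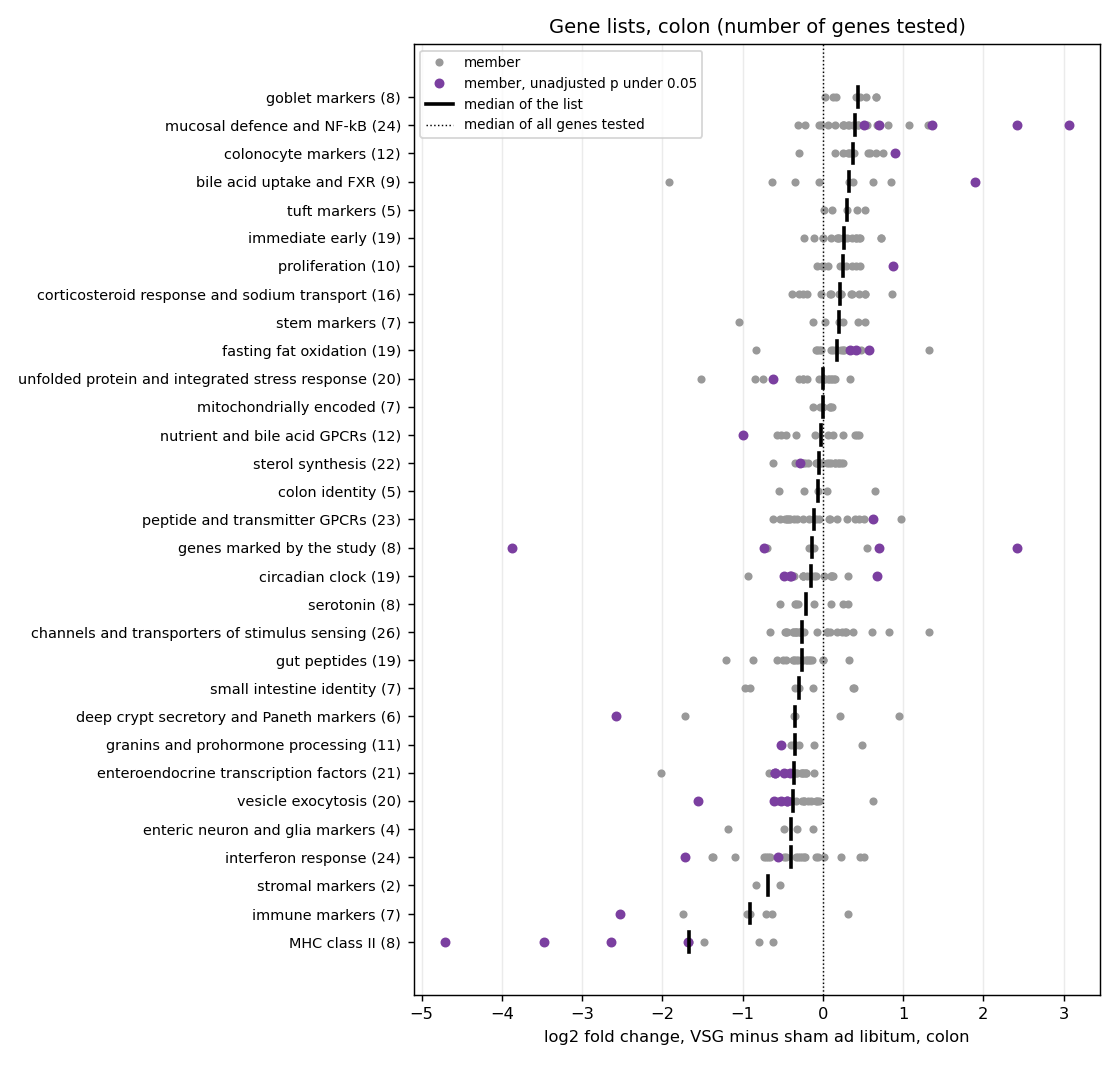
Log2 fold change between VSG and sham ad libitum colon libraries (horizontal axis) of each tested member of each gene list, ordered by the median of the list (black bar), with the number of genes tested in brackets and a dotted line at the median of all genes. Members with an unadjusted p under 0.05 are purple and none passed the adjusted test. MHC class II genes have the lowest median at -1.67 and goblet markers the highest at 0.44.

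Receptors that sense nutrients and signals had medians close to that of all genes. Their counts stand beside 3% of all genes higher and 3.28% lower at an unadjusted p under 0.05. Among 12 tested receptors for nutrients and bile acids the median was -0.02, and 1 had an unadjusted p under 0.05: Casr, the calcium and amino acid sensor, at 4.75, 11.9, 9.84, 6.14 and 3.4 CPM in sham ad libitum libraries against 1.69 to 5.67 (median 3.09) CPM (log2 fold change -0.999, SE 0.39, edgeR adjusted p = 0.777). Its ranges overlapped, at few counts per library. The fatty acid receptors Ffar1 and Ffar2, of long and short chains, had values of -0.33 (SE 0.33) and -0.10 (SE 0.24), the long-chain receptor Ffar4 0.45 (SE 0.27), Gpr119, which binds lipid amides, 0.07 (SE 0.40), and Gpbar1, the bile acid receptor, -0.57 (SE 0.65). Of 23 tested receptors for peptides and transmitters, with a median of -0.11, 1 had an unadjusted p under 0.05. It was Adra2a, the inhibitory adrenaline receptor, at 23.99, 26.9, 27.8, 23.99 and 36.9 CPM against 28.2 to 54.9 (median 45.3) CPM (log2 fold change 0.63, SE 0.30, edgeR adjusted p = 0.777), with 4 VSG libraries above the sham ad libitum range. Glp1r, the receptor for GLP-1, had a value of -0.42 (SE 0.34), and Sstr1, a somatostatin receptor, -0.32 (SE 0.24). Among 26 channels and transporters of stimulus sensing, with a median of -0.25, none had an unadjusted p under 0.05. They included the sodium glucose transporter Slc5a1 (0.17, SE 0.45), the mechanosensitive channel Piezo2 (-0.66, SE 0.40), the potassium channel gene Kcnh2 (-0.45, SE 0.24) and the calcium channel gene Cacna1h (-0.45, SE 0.27).

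Mucosal defence genes were the list with the most members higher after VSG at an unadjusted p under 0.05. Of 28 listed genes 24 were tested, 5 had an unadjusted p under 0.05, all higher after VSG and beside 3% of all genes in that direction, and the median was 0.40. Among the 5, Reg3b and Zc3h12a were marked by the study on samples that include these, so that they are not independent evidence of the direction. Reg3b, which encodes an antibacterial lectin, lies on chromosome 6 of GRCm38 (chr6:78370657-78373466, forward strand), and its paralogue Reg3g lies nearby on the reverse strand (chr6:78466269-78468872). Sequences before their RefSeq starts are shown because both genes were higher in this contrast. Shown are bases before these starts on GRCm38.p6, 5′ to 3′ on the strand of the gene, at chr6:78370745-78370860 (+) for Reg3b, where the window lies within the GENCODE gene, between annotated exons, and chr6:78468875-78469014 (-) for Reg3g. Capitals mark a match to TTCNNNGAA, the palindrome bound by STAT factors, searched on both strands.
Reg3b: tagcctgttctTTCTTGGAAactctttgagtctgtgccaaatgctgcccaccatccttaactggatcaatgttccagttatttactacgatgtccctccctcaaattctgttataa
Reg3g: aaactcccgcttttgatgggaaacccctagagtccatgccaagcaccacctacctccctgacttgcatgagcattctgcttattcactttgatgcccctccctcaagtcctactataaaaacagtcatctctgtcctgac
A match began 129 bases before the start of Reg3b, and none was found within 250 bases before Reg3g. At least 1 match was present in 2306 of 32851 windows of 250 bases before RefSeq starts (7.02%).

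Reg3b itself was at 33.2, 29.99, 47.1, 65.6 and 94.5 CPM in sham ad libitum libraries and at 62.6 to 1043 (median 92.1) CPM after VSG (log2 fold change 2.42, SE 0.69, edgeR adjusted p = 0.696). VSG mice 25 and 11, at 1043 and 369.95 CPM, stood far above the rest, and 3 of the other 4 VSG libraries lay inside the sham ad libitum range. Without VSG mouse 25 the log2 fold change of Reg3b was 1.34. Reg3g was at 14.4, 14.3, 15.7, 17.9 and 58.02 CPM against 21.7 to 147 (median 48.998) CPM (log2 fold change 1.36, SE 0.63, edgeR adjusted p = 0.777), again with mice 25 and 11 highest. Reads from such close paralogues could have been divided between them, so that their split is uncertain. Nfkb2, an NF-kB subunit gene, was at 18.3, 23.9, 20.1, 25.5 and 22.9 CPM against 26.01 to 41.2 (median 29.9) CPM (log2 fold change 0.51, SE 0.17, edgeR adjusted p = 0.696). All 6 VSG libraries lay above all 5 sham ad libitum libraries for Nfkb2, whose exons overlap Psd on the opposite strand.

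Zc3h12a, which encodes an RNase that limits inflammatory transcripts, was at 11.8, 8.08, 9.28, 14.97 and 16.3 CPM in sham ad libitum libraries and 14.8 to 29.9 (median 17.1) CPM after VSG (log2 fold change 0.70, SE 0.28, edgeR adjusted p = 0.777), with overlapping ranges. Lcn2, the siderophore-binding lipocalin, was at 0, 0, 0.562, 0 and 0 CPM against 0 to 5.51 (median 0.182) CPM (3.07, SE 1.29), with nearly all its counts in VSG mouse 18. Without that library the log2 fold change of Lcn2 was 0.21. VSG mouse 18 also had the highest level of Tifa, an adaptor of bacterial sugar sensing, at 45.4, 33.05, 58.2, 56.05 and 58.9 CPM against 48.4 to 158 (median 57.5) CPM (log2 fold change 0.55, SE 0.30, edgeR adjusted p = 0.788). Tifa too was marked by the study on samples that include these, so that it is not independent evidence of the direction. Duox2, the hydrogen peroxide-producing oxidase of the mucosa, was at 22.3 to 48.2 (median 43.7) CPM in sham ad libitum and 50.3 to 84.02 (median 58.8) CPM in VSG libraries, without overlap, and had a value of 0.68 (SE 0.64) with an edgeR adjusted p of 0.858. The acute phase gene Saa1 had a value of 1.07 (SE 0.53), the immunoglobulin receptor Pigr 0.31 (SE 0.29) and the NF-kB subunit gene Nfkb1 -0.23 (SE 0.12).

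MHC class II genes, which present antigen and can be induced in epithelium, had the lowest median of any list at -1.67, with 4 of 8 lower after VSG at an unadjusted p under 0.05, beside 3.28% of all genes. In the voom fit with the mouse as a random block, 0 of 8 had an unadjusted p under 0.05, 1 of 8 had a positive value and the median was -1.26. Cd74, the invariant chain, was at 22.7, 5.26, 14.3, 355 and 50.8 CPM in sham ad libitum libraries and 2.001 to 16.1 (median 5.75) CPM after VSG (log2 fold change -3.48, SE 1.03, edgeR adjusted p = 0.696). H2-Aa, an alpha chain, was at 2.44, 0.245, 2.25, 80.2 and 11.1 CPM against 0 to 1.37 (median 0.82) CPM (log2 fold change -4.71, SE 1.45, edgeR adjusted p = 0.696), and H2-Ab1, the beta chain that pairs with it, at 30.9, 20.8, 22.8, 193 and 20.4 CPM against 4.58 to 33.2 (median 19.3) CPM (log2 fold change -1.68, SE 0.70, edgeR adjusted p = 0.777). For each of the 3 the library of sham ad libitum mouse 24 was several-fold above every other library, and the other 10 overlapped. H2-DMb1, a chaperone of peptide loading, followed at up to 10.6 CPM in mouse 24 (-2.64, SE 1.12). Without mouse 24 the log2 fold change of Cd74 was -1.51, the log2 fold change of H2-Aa was -2.31, the log2 fold change of H2-Ab1 was -0.41 and the log2 fold change of H2-DMb1 was -1.49. Without mouse 24 the median was -0.72 and 0 of 8 had an unadjusted p under 0.05, beside 3.75% of all genes lower in that fit. Without mice 24 and 32, an omission chosen after the data were seen, the median was -0.20. Summed class II genes were at 664 CPM in mouse 24 and between 29.01 and 99.5 CPM in the other sham ad libitum libraries, against 8.43 to 57.7 CPM after VSG. Summed immune markers were at most 16.8 CPM in any library, as given above, and the part of other cells in the class II values was not tested.

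Class II promoters share a Y box, bound by NF-Y, as part of the module through which the transactivator Ciita acts. Promoters of H2-Aa and H2-Eb1 are shown because Cd74, H2-Aa, H2-Ab1 and H2-DMb1 were high together in the library of mouse 24. The level of H2-Eb1 in that library is not reported here, and no promoter window was available for H2-Ab1. The windows are the 140 bases before the RefSeq start on GRCm38.p6, 5′ to 3′ on the strand of the gene, at chr17:34287824-34287963 (-) for H2-Aa and chr17:34305727-34305866 (+) for H2-Eb1, with the Y box core TGATTGG in capitals, searched on both strands.
H2-Aa: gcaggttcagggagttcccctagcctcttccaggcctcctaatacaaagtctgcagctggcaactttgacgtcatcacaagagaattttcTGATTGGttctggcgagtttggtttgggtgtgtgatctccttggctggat
H2-Eb1: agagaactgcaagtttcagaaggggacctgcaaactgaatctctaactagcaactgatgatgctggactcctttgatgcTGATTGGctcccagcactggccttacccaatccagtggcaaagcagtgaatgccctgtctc
The core began 50 bases before the start of H2-Aa, 61 before that of H2-Eb1 and 63 before that of H2-DMb1, and H2-DMa had no match in its window. It was present in 2375 of 32851 windows of 250 bases (7.23%). H2-Eb1, a second beta chain, had a value of -0.79 (SE 1.13), and Ciita itself -0.62 (SE 0.90), with its highest level, 8.06 CPM, in the sham ad libitum group.

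Interferon response genes had a median of -0.40, with 2 of 24 lower after VSG at an unadjusted p under 0.05, beside 3.28% of all genes. Their sums overlapped, at 331 to 691 (median 384) CPM in sham ad libitum and 313.5 to 480.5 (median 396) CPM in VSG libraries. Ifit2, an RNA-binding antiviral protein gene, was at 1.22, 2.57, 1.55, 5.95 and 2.49 CPM in sham ad libitum libraries against 0.436 to 1.89 (median 0.645) CPM (log2 fold change -1.72, SE 0.52, edgeR adjusted p = 0.696). It was highest in mouse 24, without which the log2 fold change of Ifit2 was -1.23. Usp18, which removes ISG15 from proteins, was at 7.67, 9.06, 9.84, 9.98 and 8.39 CPM against 3.23 to 8.95 (median 5.86) CPM (-0.56, SE 0.27), with overlapping ranges and an exon overlap with Gm44148. Without mice 24 and 32 the median of the list was 0.15 and 0 genes had an unadjusted p under 0.05, beside 6.27% of all genes lower in that fit.

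**Figure D4:**
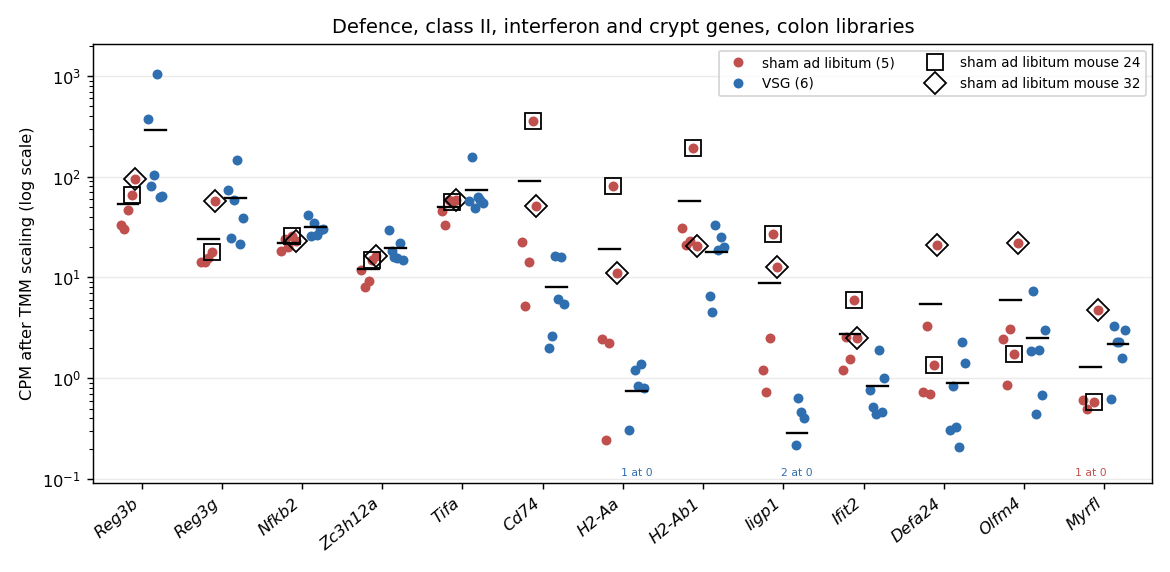
Level of defence, class II, interferon and crypt genes in the colon (CPM after TMM scaling, log axis), with 1 point per library (5 sham ad libitum, 6 VSG), a black line at the mean of each group and the number of libraries at 0 written at the base. Squares mark sham ad libitum mouse 24, highest for Cd74 at 355 CPM, and diamonds mouse 32, highest for Defa24 at 21.1 CPM.

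Among 19 tested genes of fasting fat oxidation the median was 0.18, and 3 were higher at an unadjusted p under 0.05, beside 3% of all genes in that direction. Ppara, the nuclear receptor that switches this program on, was at 9.86, 8.94, 15.7, 8.06 and 13.4 CPM in sham ad libitum libraries against 12.6 to 20.4 (median 16.97) CPM (log2 fold change 0.58, SE 0.21, edgeR adjusted p = 0.71), with 4 VSG libraries above the sham ad libitum range. Cpt1a, the carnitine transferase at the entry to mitochondria, was at 221, 217, 244, 229 and 362 CPM against 243 to 364 (median 339) CPM (log2 fold change 0.33, SE 0.16, edgeR adjusted p = 0.777), and Acadm, the medium-chain dehydrogenase, at 86.6, 79.6, 76.5, 80.4 and 111 CPM against 96.9 to 162 (median 108) CPM (log2 fold change 0.41, SE 0.19, edgeR adjusted p = 0.777). In both, sham ad libitum mouse 32 lay inside the VSG range and the other 4 libraries lay near or below its lower end. Of 9 genes of bile acid uptake and the receptor FXR (median 0.33), 1 was higher at an unadjusted p under 0.05, beside 3% of all genes. It was the nuclear receptor gene Nr1i3 at under 3 CPM in every library (1.89, SE 0.76). Slc51a, a subunit of the basolateral bile acid exporter, had a value of 0.85 (SE 0.58) and the apical transporter Slc10a2 0.37 (SE 0.58).

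Clock genes gave 1 higher and 3 lower of 19 at an unadjusted p under 0.05, beside 3% and 3.28% of all genes, with a median of -0.15. The repressors Nr1d2, Per2 and Cry2 had values of -0.40 (SE 0.16), -0.48 (SE 0.21) and -0.41 (SE 0.20), and Nfil3, a repressor that acts against Dbp, 0.67 (SE 0.32). Nr1d2 was at 53.3, 39.7, 46.8, 50.5 and 34.7 CPM in sham ad libitum libraries and 27.05 to 48.6 (median 31.5) CPM after VSG, and 5 VSG libraries lay below the sham ad libitum range, one of them by a trace. Nfil3 was at 3.78, 5.39, 5.9, 8.45 and 4.76 CPM against 4.77 to 12.1 (median 9.47) CPM. Its ranges overlapped. Against the sham weight-matched colon, which shares the 6 VSG libraries with this comparison, 9 genes of 15126 (0.0595%) had an adjusted p under 0.05 by edgeR's quasi-likelihood test, 7 of them higher after VSG. Side by side, log2 fold changes against weight-matched and ad libitum shams were -1.84 and -0.36 for Dbp, a clock output activator, 2.31 and 0.67 for Nfil3, 1.25 and -0.11 for the core activator Arntl, 1.07 and 0.10 for Cry1, 0.89 and 0.31 for Npas2 and -0.76 and -0.40 for Nr1d2. They were 1.28 and 0.57 for the carboxylesterase gene Ces1d, 1.09 and 0.20 for Tmem252, and 2.37 and 1.07 for Myrfl. In weight-matched minus ad libitum shams, 2 colon genes had an adjusted p under 0.05 by edgeR, 1 higher and 1 lower. Both were clock genes. The log2 fold change there was -1.64 for Nfil3 (edgeR adjusted p = 0.274), 0.36 for Nr1d2 and -1.30 for Myrfl. Mean Nfil3 was at 1.78 CPM in weight-matched sham, 5.65 in ad libitum sham and 8.999 in VSG libraries. The part of the feeding schedule in these values was not tested.

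The genes of lowest p in each direction, apart from those of the lists above, began with Lpo, which encodes lactoperoxidase (chr11:87806428-87828289 of GRCm38). It was at 11.4, 5.998, 9.84, 31.7 and 18.4 CPM in sham ad libitum libraries and 21.3 to 228 (median 104) CPM after VSG (log2 fold change 2.89, SE 0.68, edgeR adjusted p = 0.696). VSG mice 25, 28 and 30 lay far above the rest, and the other 3 VSG libraries lay within the sham ad libitum range. Mice 25, 28 and 30 had the lowest total counts of the VSG group. Sham ad libitum mice 24 and 32, highest for Lpo in their group, had the lowest there. The part of sequencing depth in these values was not tested. Slc30a10, a manganese exporter (chr1:185454848-185468762), was at 12.1, 4.77, 7.45, 13.4 and 13.6 CPM against 14.6 to 62.9 (median 43.9) CPM (log2 fold change 2.09, SE 0.59, edgeR adjusted p = 0.696), and every VSG library was above every sham ad libitum library. Its exons overlap Gm2061 on the opposite strand. When only the 16 colon libraries were fitted, Slc30a10 reached 0.0482 as its adjusted p in edgeR's quasi-likelihood test. Prkab1, a regulatory subunit of AMP-activated kinase, was at 50.7, 39.8, 48.4, 57.8 and 67.3 CPM against 67.7 to 86.9 (median 73.03) CPM (log2 fold change 0.52, SE 0.15, edgeR adjusted p = 0.696), without overlap. The uncharacterised 1600014C10Rik was at 7.55, 5.998, 4.08, 5.37 and 4.76 CPM against 8.12 to 61.01 (median 19.1) CPM (log2 fold change 2.29, SE 0.67, edgeR adjusted p = 0.696), and it too did not overlap, with mice 25, 28 and 30 highest as for Lpo. Mybl2, a cell cycle factor, had a value of 1.74 (SE 0.48) without overlap, at under 3 CPM in every library. Card14, which activates NF-kB signalling, and Gm6392 had values of 0.82 (SE 0.22) and 1.83 (SE 0.53).

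Among genes lower after VSG, Sis, the brush border sucrase-isomaltase (chr3:72888557-72967863), was at 268, 283, 192, 190.2 and 157 CPM in sham ad libitum libraries and 90.5 to 154 (median 117) CPM after VSG (log2 fold change -0.89, SE 0.24, edgeR adjusted p = 0.696). No VSG library reached the lowest sham ad libitum library, although the gap was narrow. Jdp2, a repressor of AP-1 factors (chr12:85599027-85639878), was at 6.58, 11.9, 15.7, 7.49 and 6.12 CPM against 2.29 to 5.02 (median 2.96) CPM (log2 fold change -1.50, SE 0.37, edgeR adjusted p = 0.696), without overlap but with an exon overlap with Gm47863. Il12a, a cytokine subunit gene, was at 4.02, 2.2, 5.62, 5.37 and 3.63 CPM against 0 to 1.77 (median 0.776) CPM (log2 fold change -2.23, SE 0.64, edgeR adjusted p = 0.696), also without overlap. In a voom fit with the mouse as a random block, Il12a had an adjusted p of 0.0415 by limma. The interferon-induced GTPase genes Iigp1 and Gm12250 had values of -5.03 (SE 1.26) and -4.41 (SE 1.15), both with their highest levels in sham ad libitum mice 24 and 32. Without both mice the log2 fold change of Iigp1 was -2.48 and the log2 fold change of Gm12250 was -1.73. Tsga10, Tmem199 and Vwa7 had values of -1.61 (SE 0.43), -0.86 (SE 0.23) and -1.60 (SE 0.45), and the low D930028M14Rik -2.79 (SE 0.77). Exons of Card14, 1600014C10Rik, Tsga10 and Vwa7 overlap Sgsh, D530033B14Rik, Gm26805 and Sapcd1, and those of Tifa, Syt4, Cry2 and Nr1i3 overlap Gm43654, Gm26658, D930015M05Rik and Tomm40l, so that their counts are uncertain.

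Several genes of low p rested on a handful of reads. Asgr2, an asialoglycoprotein receptor subunit gene, had 0 counts in the sham ad libitum and 17 in the VSG libraries, at least 4.76-fold higher against a floor of 3 counts over the group. Chrna5, a nicotinic receptor subunit gene, had 19 and 0 counts, at least 7.54-fold lower, and Agmat, agmatinase, 17 and 0 counts, at least 6.74-fold lower. The long RNA Snhg14, which overlaps Ube3a, had 3 and 35 counts, a ratio of 9.80 with a counting interval from 3.09 to 49.8. Myrfl, a transcription factor-like gene, was at 0.609, 0.49, 0, 0.576 and 4.76 CPM against 0.616 to 3.33 (median 2.3) CPM (log2 fold change 1.07, SE 0.41, edgeR adjusted p = 0.758). Without sham ad libitum mouse 32, its highest library, the log2 fold change was 2.37 with 9.2e-04 as the adjusted p from edgeR. Without mice 24 and 32 it was 2.501, with an edgeR adjusted p of 0.0033.

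**Figure D5:**
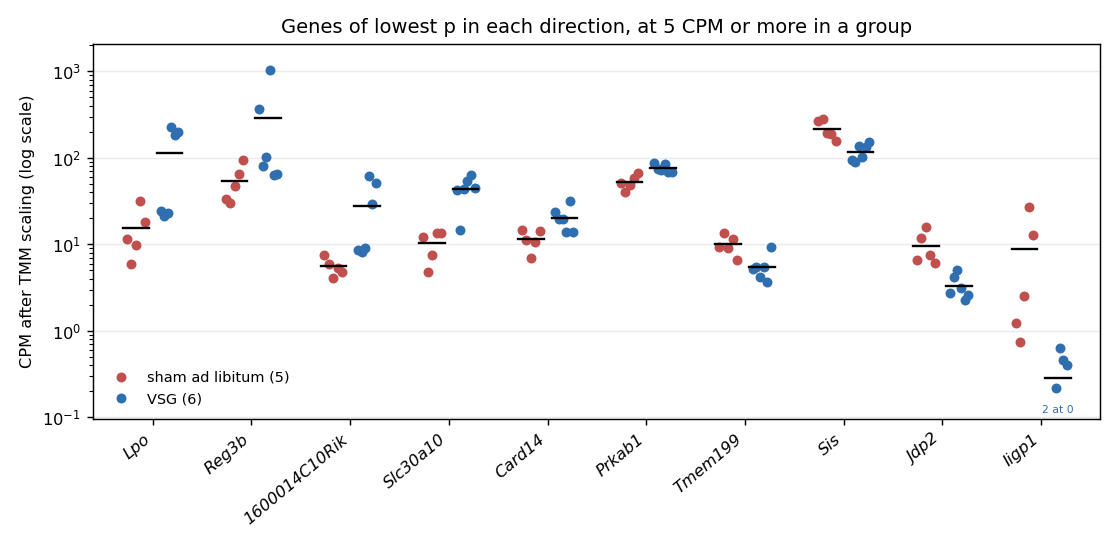
Level of the genes of lowest p in the colon (CPM after TMM scaling, log axis), for genes with a mean of at least 5 CPM in a group, with 1 point per library (5 sham ad libitum, 6 VSG) and a black line at the mean of each group. Slc30a10 runs from 4.77 to 13.6 CPM in sham ad libitum and 14.6 to 62.9 CPM in VSG libraries, and no gene shown passed the adjusted test.

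A further list holds 8 genes that the study marked for VSG against sham ad libitum over all 3 gut regions together, and since these libraries were among them they are not independent evidence of a direction. At an unadjusted p under 0.05, 2 were higher (Reg3b and Zc3h12a) and 2 lower, beside 3% and 3.28% of all genes, with a median of -0.14. Kirrel, an adhesion molecule gene, was at 44.6, 68.4, 42.03, 28.2 and 24.2 CPM in sham ad libitum libraries against 16.6 to 33.9 (median 23.8) CPM (log2 fold change -0.74, SE 0.26, edgeR adjusted p = 0.702), with overlapping ranges. Slc28a1, a nucleoside transporter gene, had 18 counts in sham ad libitum and 1 in VSG libraries, a ratio of 21.4 with a counting interval from 3.38 to 892. Clps, the pancreatic colipase gene, had a value of -0.70 (SE 0.36), Hjurp, a centromere chaperone gene, -0.17 (SE 0.13), and Maob, a monoamine oxidase gene, -0.11 (SE 0.17). The value of Tifa, described above with the defence genes, was 0.55 (SE 0.30).

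The colon values were set beside the VSG effect in the duodenum and ileum by testing the difference of effects. Regions of the same mouse were treated as independent in edgeR's test, which had no term for the mouse. No gene had an adjusted p under 0.05 for colon minus ileum by edgeR's quasi-likelihood test with Benjamini-Hochberg adjustment, with 1221 (8.07%) at an unadjusted p under 0.05 and a lowest adjusted p of 0.376. For colon minus duodenum the counts were 0 and 609 (4.03%), with a lowest adjusted p of 1. DESeq2 called 0 genes in either. The lowest p for colon minus ileum belonged to Maff, a small MAF factor gene, whose log2 fold change was -0.34 in colon and 0.76 in ileum (difference -1.09, edgeR adjusted p = 0.376). Dtnbos and Elfn1 followed with differences of -3.74 and -4.91. For colon minus duodenum it belonged to the colonocyte gene Aqp8, with 0.90 in colon and -2.79 in duodenum (difference 3.69, edgeR adjusted p = 1), followed by B3galt2 at 4.03 and Tnnt2 at -4.75.

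By list, the median VSG effect of granin genes was -0.35 in colon, 0.41 in ileum and 0.08 in duodenum. For enteroendocrine transcription factors these medians were -0.36, 0.27 and 0.09, and for exocytosis genes -0.37, 0.27 and 0.03. In the difference colon minus ileum, 5 of 11 granin, 5 of 21 transcription factor and 7 of 20 exocytosis genes were lower at an unadjusted p under 0.05, beside 4.41% of all genes in that direction, and none passed the adjusted test. Neurod1 had a value of -0.41 in colon and 0.53 in ileum (difference -0.94, edgeR adjusted p = 0.532). Colonocyte and goblet markers had positive medians in the colon and negative ones elsewhere. These were 0.37 in colon, -0.42 in ileum and -0.69 in duodenum for colonocytes and 0.44, -0.58 and -0.19 for goblet cells. Not every epithelial list did so, as the deep crypt and Paneth median was -0.35 in colon and the tuft median 0.03 in duodenum. Fat oxidation genes had medians of 0.18, -0.44 and -0.24, with 7 of 19 higher for colon minus ileum at an unadjusted p under 0.05 (3.66% of all genes), among them Ppara (difference 1.21, edgeR adjusted p = 0.376) and Cpt1a (difference 0.75). Defence genes were on the same side in every region, with medians of 0.40, 0.55 and 0.90. The list holds Reg3b, Tifa and Zc3h12a, which the study marked over all regions of these samples together. For them the shared side is not independent evidence. In the difference colon minus ileum 1 was higher and 3 lower of 24 at an unadjusted p under 0.05, beside 3.66% and 4.41% of all genes.

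Against the sham weight-matched colon, again with the same 6 VSG libraries, the medians were -0.08 for granin genes, -0.27 for transcription factors, -0.18 for exocytosis genes, -0.10 for gut peptides, 0.39 for defence genes and -1.08 for MHC class II genes. Side by side, the values against weight-matched and ad libitum shams were 2.15 and 2.09 for Slc30a10, -0.78 and -0.89 for Sis, and 2.21 and 2.42 for Reg3b. Those of Gcg were -0.71 and -0.46, and those of Pyy -0.22 and -0.20.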

How the data were processed

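RNA was sequenced from FACS-sorted, EYFP-positive cells of 48 mouse gut samples, 11 of them compared here, with a stranded total RNA kit for small input. The authors deposited raw counts per Ensembl gene. Their processing notes name CASAVA and STAR 2.5.1 with GRCm38, and the strand setting of the counting was not given in the sources used here, so that genes with overlapping exons are uncertain. Of 53465 genes 53360 were matched to GENCODE M21 by identifier.

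Counts of all 48 libraries in 9 groups (surgery by region) were fitted with edgeR 4.0.16 (filterByExpr, TMM, robust quasi-likelihood test, R 4.3.3), which left 15126 genes, and p-values were adjusted by Benjamini-Hochberg over all of them, with a threshold of 0.05. The SE was taken from the F statistic. Total counts per library were 4648651 to 8777721, and intervals on counts cover counting error only. None of 25 pairs of libraries within a group was a duplicate, the smallest chi-square being 8.14 per gene. The study fitted the same groups with DESeq2.

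Alternatives were DESeq2 1.42.0, its size factors, no filter, a stricter filter, voom in limma 3.58.1 with a random block for the mouse, other sets of libraries, the index code as a covariate and leaving out each library. Omission of sham ad libitum mice 24 and 32 was added after seeing the data. The surgery groups hold different mice, so that they are not paired. Libraries of 1 mouse from different regions had a median correlation of deviations of 0.101 over 21 pairs (-0.07 to 0.32).

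The comparison, the gene lists and the named genes were chosen with earlier results of these data known. Named genes are the 10 of lowest p in each direction, all tested gut peptides, 4 endocrine markers (Neurod1, Chga, Chgb, Scg2), the 8 genes the study marked, up to 5 members of each list at an unadjusted p under 0.05 or else the 1 of lowest p, genes called under any alternative and the 3 of lowest p in each test between regions. Other list members were named as examples after their values were seen, and some list members are not reported here by name. Promoter windows are from RefSeq.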

Additional observations from a re-analysis of the deposited data

Results flagged for a closer look

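In some genes a single library lay far from the rest of its group by Dixon's test on CPM. Of 230 groups of libraries searched, 35 held such a library, and chance alone gives about 1 in 20, a rate that does not hold for genes at 0 in most libraries. Values are in CPM. In sham ad libitum mouse 12 this was Sct at 741. In sham ad libitum mouse 13 this was Nmu at 0.734, Elavl4 at 12.6 and Elfn1 at 6.12. In sham ad libitum mouse 19 this was Lcn2 at 0.562. In sham ad libitum mouse 24 this was Cd74 at 355, H2-Aa at 80.2, H2-Ab1 at 193, Ifit2 at 5.95, Sgk1 at 42.8 and MHC class II summed at 664. In sham ad libitum mouse 32 this was Cpe at 356, Reg3g at 58.02, Cpt1a at 362, Acadm at 111, Nr1i3 at 0.906, Defa24 at 21.1, Olfm4 at 21.98 and Myrfl at 4.76. In VSG mouse 11 this was Insm1 at 95.7 and Acadm at 162. In VSG mouse 18 this was Tifa at 158, Lcn2 at 5.51, Nr1d2 at 48.6 and Lyz2 at 0.104. In VSG mouse 22 this was D930028M14Rik at 0.327 and Slc28a1 at 0.109. The values of Slc28a1 and of Lyz2 are each 1 read, below the floor of 3 counts. In VSG mouse 25 this was Reg3b at 1043, Ppy at 124, Insl5 at 345 and Vamp2 at 41.3. In VSG mouse 28 this was Nr1i3 at 2.29. In VSG mouse 30 this was Gm12250 at 1.002, Tmem199 at 9.22 and Pdyn at 13.03.

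The 2 libraries with most of these genes in the sham ad libitum group were those of mice 24 and 32. Without mouse 24, 0 of 8 class II genes had an unadjusted p under 0.05. The cause of these values was not tested.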

How the results depend on the processing

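The count of 0 genes at an adjusted p under 0.05 between VSG and sham ad libitum became 1 in a voom fit with the mouse as a random replicate block (Il12a, -2.30, adjusted p = 0.0415 by limma), 1 in a fit of only the 16 colon libraries (Slc30a10, 2.08, adjusted p = 0.0482 by edgeR) and 1 without sham ad libitum mice 24 and 32, an omission chosen after seeing the data (Myrfl, 2.501, adjusted p = 0.0033 by edgeR). Leaving out each library gave 0 to 1, with 1 (Myrfl, 2.37) only without sham ad libitum mouse 32. The differences colon minus ileum and colon minus duodenum also gave 0 to 1 when each library was left out, again with 1 only without mouse 32. Against sham weight-matched mice the 9 genes became 15 with DESeq2, 4 with no filter on low counts and 4 without the ileum and colon libraries of mouse 12. Leaving out each library gave 3 to 10 there, with 3 without VSG mouse 25 or 30 and 5 without VSG mouse 22 or 28. The share of variance between the groups was 9.67% to 13.9% when each library was left out (exact permutation p from 0.181 to 0.571), 9.99% with 50 genes, 10.1% with more genes and 12.3% after a variance-stabilizing transformation. The causes of these shifts were not tested.

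Of the values of named genes under the alternatives, 2066 kept their sign and their side of the threshold, 28 changed sign and 4 passed the threshold. With the replicate block Gip was at 0.23, and the block changed no other direction among the named genes. Without the ileum and colon libraries of mouse 12 Iapp was at 0.20. Insl5, near 0 as reported, was at 0.0016 with no filter and 0.0024 with the stricter filter. Without sham ad libitum mice 24 and 32 Ghrl was at 0.0188, the log2 fold change of Cck at 0.0413, Gip at 0.79, Insl5 at 0.10 and Olfm4 at 0.34. Leaving out each library gave -2.05 to 0.72 for Nmu, -0.58 to 0.13 for Sst, -0.31 to 0.14 for Cck, -0.30 to 0.20 for Iapp, -0.68 to 0.56 for Gip, -0.49 to 0.31 for Insl5, -0.33 to 0.0858 for Scg2 and -1.87 to 0.40 for Olfm4. With 5 and 6 mice, and genes of few counts per library, differences smaller than the intervals given were not detectable, and larger ones could also miss the adjusted threshold.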

Other observations

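Lists of genes for stress and metabolism not described above gave few genes at an unadjusted p under 0.05, and none passed the adjusted test. Of 19 tested immediate early genes, which respond within minutes to stimulation, 17 had a positive value, with a median of 0.26 and 0 at an unadjusted p under 0.05. Of all 15126 genes tested, 7718 had a positive value. Fos was at 84.3 to 358 (median 157) CPM in sham ad libitum and 108 to 458 (median 155) CPM in VSG libraries (0.26 (SE 0.51)), so that the groups overlapped for most of their range. Among 16 genes of the corticosteroid response and sodium transport the median was 0.21, with 0 at an unadjusted p under 0.05. Sgk1, a kinase that raises sodium channel activity, was at 20.9 to 42.8 (median 25.6) CPM against 32.3 to 80.8 (median 43.9) CPM (0.87 (SE 0.50)), and the channel subunit Scnn1a had a value of 0.36 (SE 0.24).

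The 20 genes of the unfolded protein and integrated stress response had a median of 0.00, and 1 was lower at an unadjusted p under 0.05, beside 3.28% of all genes. It was Psat1, an enzyme of serine synthesis, at 15.4 to 43.4 (median 35.9) CPM against 16.001 to 26.5 (median 22.2) CPM (-0.62 (SE 0.28)). The chaperone Hspa5 had a value of 0.06 (SE 0.12). The 22 sterol synthesis genes had a median of -0.05, and none passed the adjusted test. Of 13 mitochondrially encoded genes 7 were tested, with a median of -0.00 and 0 at an unadjusted p under 0.05.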
